A study of Homo sapiens with 6 samples.

Results

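The sorting receptor SORL1 and 7 related receptors, SORT1, VLDLR, LRP1, LRP8, LRP10, LRP11 and LRP12, were followed in H2122, a cell line from a human lung adenocarcinoma. Cells had been transfected for 48 hours with an shRNA against the acyltransferase gene LCLAT1, which the labels call by its older name LYCAT, or with a control shRNA, and there were 3 libraries with each. The title of the study speaks of a knockout, whereas the sample labels give an shRNA. The sources used here do not say whether 1 or several shRNAs were used. The labels do not tie the libraries of a group to separate cultures, so the errors below measure a spread that may be technical. The 8 genes were taken by symbol from a table of 23368 genes. All 8 passed the filter on low counts, VLDLR through its control libraries, and were among the 11097 genes tested. They had been chosen by their function and from their counts in this same contrast, in which SORL1 was already known to be lower. Their differences between the groups are therefore given as a description. Where a receptor is said to have passed the threshold used for all genes, this gives its place in the fit and is no independent test.

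SORL1 and SORT1 belong to the VPS10 domain receptors, which carry cargo between the trans-Golgi network, endosomes and the cell surface. SORL1 also has the ligand-binding repeats of the LDL receptor family and is best known for routing the amyloid precursor protein APP away from endosomes with the help of the retromer coat. VLDLR and LRP8 bind apolipoprotein E and reelin, LRP1 is a large endocytic receptor for many ligands, and LRP10, LRP11 and LRP12 are smaller transmembrane proteins with LDL receptor type repeats.

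With LYCAT shRNA, SORL1 was 3.05-fold lower and VLDLR 2.10-fold lower than with control shRNA, while the other 6 receptor genes differed by 1.13-fold or less in either direction. Expression was measured as CPM, counts scaled to a library size of 1000000. At an adjusted p under 0.05 with edgeR's quasi-likelihood test, 2 of the 8 genes passed as lower, SORL1 and VLDLR, where 9.26% of all tested genes passed as lower. As higher 0 of the 8 passed, where 9.81% of all tested genes did, and 0 of the 8 were higher at an unadjusted p under 0.05, with DESeq2 or with limma-voom. In either direction 19.1% of the tested genes passed. Since the genes were chosen in view of this contrast, nothing is read from these counts. The groups of libraries did not overlap for the same 2 genes, and for 32.8% of all tested genes. The median log2 fold change was -0.11 over the 8 genes and -0.006 over all tested genes.

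The bases before the annotated start of 3 of the genes are shown because SORL1 and VLDLR were the receptors that were lower, and LRP8, which binds the same ligands as VLDLR, was not. They are the 250 bases upstream of the start in RefSeq (GRCh38.p14), written 5′ to 3′ on the strand of the gene. Capitals mark a GC box, GGGCGG, or an E-box, CACGTG, on either strand. SORL1 lies on the plus strand (chr11:121452064-121452313), VLDLR on the plus strand (chr9:2621537-2621786) and LRP8 on the minus strand (chr1:53328071-53328320).
SORL1: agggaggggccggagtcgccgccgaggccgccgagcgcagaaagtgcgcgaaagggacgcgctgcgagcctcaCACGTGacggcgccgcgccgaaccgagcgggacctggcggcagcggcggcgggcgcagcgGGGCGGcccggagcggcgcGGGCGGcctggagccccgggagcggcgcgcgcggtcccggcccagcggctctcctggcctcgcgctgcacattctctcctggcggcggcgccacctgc
VLDLR: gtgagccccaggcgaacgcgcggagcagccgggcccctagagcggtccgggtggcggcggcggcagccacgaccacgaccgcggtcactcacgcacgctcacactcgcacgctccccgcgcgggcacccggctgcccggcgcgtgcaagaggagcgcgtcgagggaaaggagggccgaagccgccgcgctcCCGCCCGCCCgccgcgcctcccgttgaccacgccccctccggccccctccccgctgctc
LRP8: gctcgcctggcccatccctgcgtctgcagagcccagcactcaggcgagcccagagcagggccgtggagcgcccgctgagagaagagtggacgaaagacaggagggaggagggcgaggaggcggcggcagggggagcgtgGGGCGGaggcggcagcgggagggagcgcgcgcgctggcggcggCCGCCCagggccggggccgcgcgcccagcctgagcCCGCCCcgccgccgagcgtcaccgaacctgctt

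All 3 windows were rich in G and C, at 80.4% for SORL1, 78.8% for VLDLR and 77.2% for LRP8, above 97.1%, 95.4% and 93.2% of the 35116 promoters of the same length. The GC box occurred 2 times in SORL1, 2 times in VLDLR, where the copies overlap each other, and 3 times in LRP8, and 42.6% of all promoters held at least 1. The E-box occurred 1 time in SORL1 and in none of the other 6 receptor promoters that could be matched, and in 6.34% of all promoters. The TATA box TATAAA, the cyclic AMP element TGACGTCA, the AP-1 site TGANTCA and the ETS core CCGGAAG were in none of the 7 windows on either strand, and the CCAAT box was in those of SORT1 and LRP10 among them. GC content was 74.0% for SORT1, 74.0% for LRP11, 67.6% for LRP1 and 51.6% for LRP10. These matches describe letters and show nothing about binding of a factor.

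SORL1 measured 3.61, 4.51 and 2.57 CPM in the libraries with LYCAT shRNA, against 12.0, 10.1 and 9.85 CPM in the control shRNA libraries. Every LYCAT shRNA library was below every control library, and the gap between the groups was wider than the range within either. The mean was 3.57 ± 0.974 CPM with LYCAT shRNA and 10.7 ± 1.17 CPM with control shRNA (SD, n = 3 each), a log2 fold change of -1.61 (SE 0.262, 95% interval -2.13 to -1.09). The level with LYCAT shRNA was 32.8% of the control level, with an interval on the ratio of 0.229 to 0.471. These values rest on 17, 14 and 11 counts with LYCAT shRNA and 56, 50 and 40 with control shRNA, so the direction was better determined than the size. Counting alone gives a coefficient of variation near 27.2% and 14.5% at such counts, and the observed values were 27.3% and 11.0%. SORL1 had the 34th lowest log2 fold change of the 11097 tested genes, and 0.297% of them were lower.

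VLDLR, a receptor for apolipoprotein E and reelin, stood at 3.19, 1.61 and 1.40 CPM with LYCAT shRNA, against 5.79, 4.26 and 3.45 CPM with control shRNA. The groups did not overlap, but the highest LYCAT shRNA library and the lowest control library nearly met. The mean was 2.07 ± 0.977 CPM with LYCAT shRNA and 4.50 ± 1.19 CPM with control shRNA (SD, n = 3 each), a log2 fold change of -1.07 (SE 0.367, 95% interval -1.80 to -0.34). VLDLR was counted 15, 5 and 6 times with LYCAT shRNA and 27, 21 and 14 times with control shRNA, and a fold from so few counts is imprecise. VLDLR met the filter on low counts through the control libraries, the group where it is higher, so its call is no added support. Its log2 fold change was -0.95 without LYCAT shRNA replicate 2, -0.83 without LYCAT shRNA replicate 3, -0.85 without control shRNA replicate 1 and -1.09 with DESeq2, and in these fits it was not among the genes that passed. Without LYCAT shRNA replicate 1 its log2 fold change was -1.58.

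**Figure D1:**
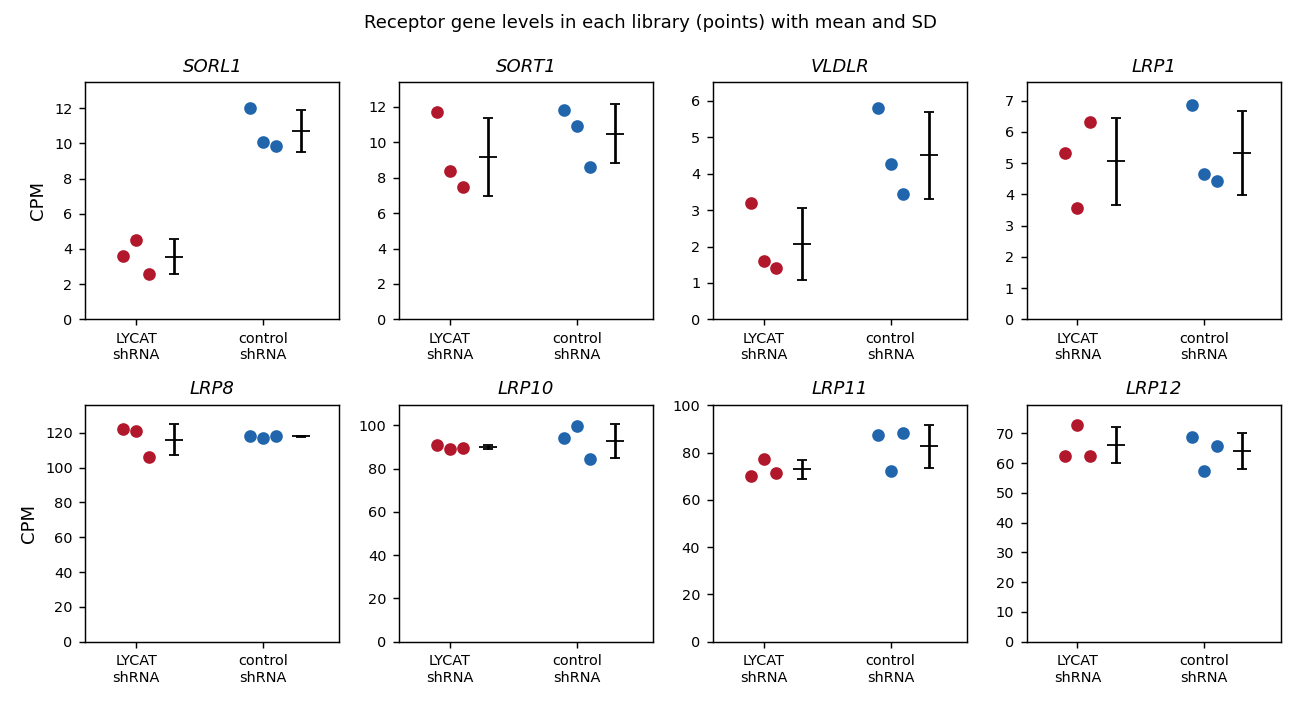
Level in CPM (vertical axes, each starting at 0) of the 8 receptor genes in each library, with LYCAT shRNA in red and control shRNA in blue; black bars are the mean and SD of 3 libraries. The groups are apart for SORL1 (up to 4.51 CPM with LYCAT shRNA, from 9.85 CPM with control shRNA) and for VLDLR, and overlap for the other 6.

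SORT1, sortilin, is the VPS10 domain receptor closest in kind to SORL1 and carries progranulin, prosaposin and other cargo to lysosomes. It stood at 11.7, 8.38 and 7.47 CPM with LYCAT shRNA and at 11.8, 10.9 and 8.62 CPM with control shRNA, and the groups overlapped. Its log2 fold change of -0.18 (SE 0.211) had a 95% interval of -0.60 to 0.24. That interval does not reach the interval of SORL1, which is a description and no test between the genes. Within each library, the level of SORL1 relative to SORT1, per kb of exon, was 0.192, 0.334 and 0.213 with LYCAT shRNA, against 0.631, 0.574 and 0.708 with control shRNA. This ratio does not depend on how libraries are scaled, and its groups did not overlap. It is built from the counts by which SORL1 was chosen, so it is a description and no further support. For VLDLR relative to SORT1 it was 0.219, 0.154 and 0.151 with LYCAT shRNA, against 0.394, 0.312 and 0.321 with control shRNA.

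LRP1, the large endocytic receptor for protease complexes and lipoprotein remnants, was low in these cells. Its CPM values were 5.32, 3.55 and 6.31 with LYCAT shRNA and 6.86, 4.66 and 4.43 with control shRNA. The groups overlapped, and the log2 fold change was -0.04 (SE 0.286). With counts of 11 to 32 per library, the 95% interval of -0.61 to 0.53 leaves room for a ratio between 0.654 and 1.44.

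LRP8, the other reelin and apolipoprotein E receptor besides VLDLR, was abundant and nearly the same in both groups. It stood at 122, 121 and 106 CPM with LYCAT shRNA and at 118, 117 and 118 CPM with control shRNA. The log2 fold change was -0.02 (SE 0.0707), and the 95% interval of the ratio was 0.896 to 1.09. In the fit of all libraries that interval lies above the whole interval of VLDLR, whose ratio was 0.476 (0.287 to 0.790). Over the settings the log2 fold change of VLDLR ranged from -1.58 to -0.68. The comparison is a description of genes chosen in view of this contrast and no test between them.

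LRP10, known to cycle between the trans-Golgi network and endosomes, stood at 90.8, 89.0 and 89.7 CPM with LYCAT shRNA and at 94.1, 99.7 and 84.2 CPM with control shRNA. The control libraries spanned the LYCAT shRNA libraries, and the log2 fold change was -0.05 (SE 0.0777, 95% interval -0.20 to 0.11). LRP12 stood at 62.5, 72.9 and 62.4 CPM with LYCAT shRNA and at 68.8, 57.4 and 65.8 CPM with control shRNA, with a log2 fold change of 0.03 (SE 0.0908, 95% interval -0.15 to 0.22). For both genes the groups overlapped.

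LRP11 stood at 70.2, 77.4 and 71.2 CPM with LYCAT shRNA and at 87.4, 72.2 and 88.2 CPM with control shRNA. Control shRNA replicate 2 lay among the LYCAT shRNA libraries, and the other 2 control libraries lay above them. The log2 fold change was -0.18 (SE 0.0849, 95% interval -0.35 to -0.01), and LRP11 did not pass after adjustment over all tested genes. Without control shRNA replicate 2 its log2 fold change was -0.28, and the count of receptors that passed as lower was 3 of 8.

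**Figure D2:**
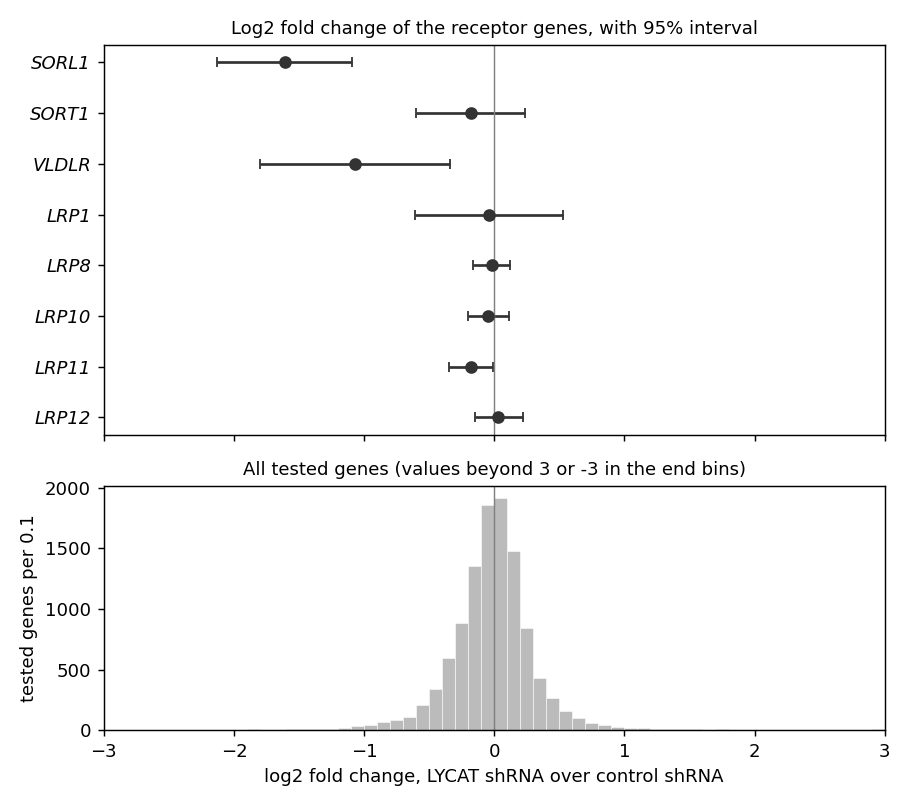
Upper panel, log2 fold change of LYCAT shRNA over control shRNA (horizontal axis) for each receptor gene, with 95% intervals from the edgeR fit; lower panel, number of tested genes per 0.1 of the same scale. SORL1 at -1.61 and VLDLR at -1.07 lie in the lower tail of all tested genes, and the other 6 lie between -0.18 and 0.03.

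Levels of different genes were compared per kb of exon, using the exon lengths of GENCODE v29. With control shRNA, LRP12 was at 15.4 ± 1.43, LRP8 at 15.0 ± 0.0425, LRP11 at 15.0 ± 1.64 and LRP10 at 13.5 ± 1.14 CPM per kb (SD, n = 3), and neighbours in this order did not differ beyond their spread. SORT1 followed at 1.42 ± 0.223, SORL1 at 0.897 ± 0.0984, VLDLR at 0.491 ± 0.130 and LRP1 at 0.315 ± 0.0794 CPM per kb. The 8 genes thus fell into 4 of high and 4 of low level, and the gap between LRP10 and SORT1 was far larger than the spread of either. With LYCAT shRNA the 4 abundant genes were at 13.0 to 15.9 CPM per kb. SORT1 was at 1.25 ± 0.302, LRP1 at 0.300 ± 0.0828, SORL1 at 0.300 ± 0.0820 and VLDLR at 0.226 ± 0.107 CPM per kb there. SORL1 was above LRP1 by more than the spread with control shRNA, and with LYCAT shRNA their levels per kb did not differ beyond it.

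**Figure D3:**
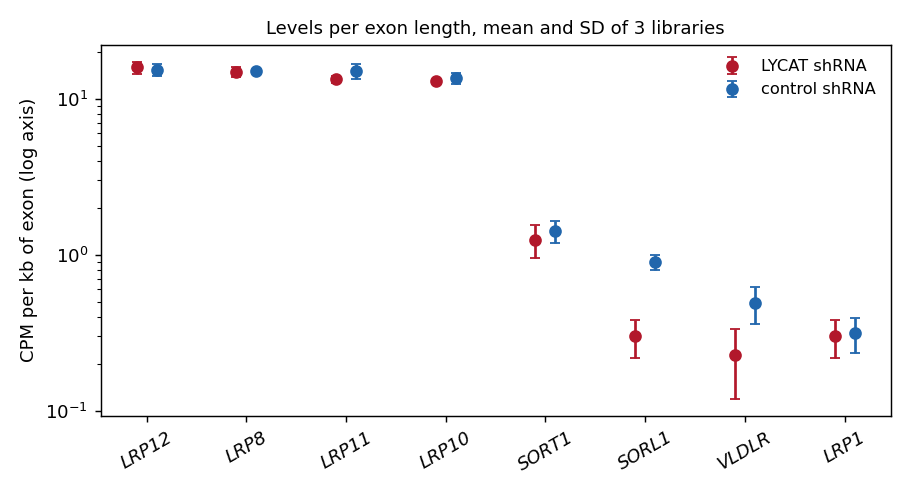
Level per exon length in CPM per kb (log axis) of the 8 genes, ordered by their level with control shRNA; points and bars are the mean and SD of 3 libraries, LYCAT shRNA in red left of control shRNA in blue. LRP12, LRP8, LRP11 and LRP10 lie at 13.0 to 15.9 CPM per kb in both groups, and the other 4 below 1.5.

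Both genes that were lower stood among the 4 of low level, where fewer genes pass when differences of any size are counted. Of tested genes with a mean under 5 CPM, 9.49% passed in either direction, and of those with 5 to 20 CPM 12.6%, against 31.9% of those with 100 CPM or more. The median SE of a log2 fold change was 0.354 under 5 CPM and 0.0619 at 100 CPM or more. Calls as lower by 2-fold or more were instead more frequent at low level. Among genes with a mean of 5 to 20 CPM, 36 of 2965 passed so, SORL1 among them. Under 5 CPM 47 of 1138 did, VLDLR among them. At 20 to 100 CPM 14 of 4798 did, and at 100 CPM or more 2 of 2196.

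The shRNA target LCLAT1 was at 18.9, 22.6 and 23.6 CPM with LYCAT shRNA and at 56.8, 61.2 and 65.3 CPM with control shRNA, or 35.4% of control (log2 -1.50, SE 0.114, edgeR adjusted p = 1.15e-18; exact two-sided permutation p = 0.1, the smallest that 3 against 3 libraries can give). Library totals were 3118946 to 4730453 counts with LYCAT shRNA and 4075367 to 4930079 with control shRNA, and 3 counts correspond to 0.608 to 0.967 CPM. Counts of any 2 libraries of the same group differed by more than sampling noise, with a chi-square of 1.36 to 2.49 for each degree of freedom. All 10 epithelial markers examined were abundant enough to test, and their summed level was 2110 to 2170 CPM with LYCAT shRNA and 2350 to 2420 CPM with control shRNA. Of the 10, 5 fell (50.0% passed, against 19.1% of all tested genes), 0 rose and 5 did not pass. With DESeq2, 3 of the 10 were lower and 0 higher. At an unadjusted p under 0.05 with edgeR, 1 was higher. This was ELF3, named after its values were seen, at 6.45 CPM with LYCAT shRNA and 4.15 CPM with control shRNA (log2 0.63). The 5 that fell were the keratins KRT7 (log2 -0.30), KRT8 (-0.43) and KRT18 (-0.23), the cadherin CDH1 (-0.26) and the splicing regulator ESRP1 (-0.22). EPCAM did not pass, at 624 CPM with LYCAT shRNA and 644 CPM with control shRNA. SORL1 and VLDLR were lower in the same libraries, and the part of this difference in theirs was not tested.

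Of 22 markers of fibroblasts, endothelium and blood, 4 entered the test and 0 passed with edgeR, 1 being lower at an unadjusted p under 0.05, 1 with DESeq2 and 2 with limma-voom. Their summed level was 43.8, 25.8 and 37.4 CPM with LYCAT shRNA and 98.6, 142 and 36.4 CPM with control shRNA, and PECAM1, CDH5, PTPRC, CD3E and FAP were at 0 in every library. COL1A1 made up much of it, at 25.9, 16.4 and 22.9 CPM with LYCAT shRNA and 59.4, 82.7 and 28.3 CPM with control shRNA. COL1A2 was at 5.53, 1.61 and 4.44 CPM with LYCAT shRNA and 14.4, 23.9 and 0.985 CPM with control shRNA. COL3A1 was at 3.83, 0.0 and 1.40 CPM with LYCAT shRNA and 10.1, 17.2 and 1.23 CPM with control shRNA. For these collagens control libraries 1 and 2 thus stood apart from control library 3. SORL1 was at 12.0 and 10.1 CPM in those 2 libraries and at 9.85 CPM in control library 3. VLDLR was at 5.79 and 4.26 CPM in them and at 3.45 CPM in control library 3. Both genes were thus highest in control libraries 1 and 2, though for SORL1 control libraries 2 and 3 differed by less than counting error. Without control libraries 1 and 2 the log2 fold change was -1.49 for SORL1 and -0.68 for VLDLR. That fit takes the 1 remaining control library to be as variable as the LYCAT shRNA libraries. In RNA from whole cultures, fewer cells that express a gene and less of its RNA per cell cannot be told apart.

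The tested genes of 4 lists around these receptors had log2 fold changes smaller in size than those of SORL1 and VLDLR, in both directions. Among 13 tested genes of the rest of the LDL receptor family with its chaperones and adaptors, 3 rose and 1 fell (30.8%, against 19.1% of all tested genes), 9 did not pass, and the median log2 fold change was 0.04. LRPAP1, the chaperone that keeps ligands off newly made receptors of this family, rose to 123 CPM with LYCAT shRNA, against 103 CPM with control shRNA (log2 0.26, SE 0.0703, edgeR adjusted p = 0.00446). MESDC2, a chaperone of LRP5 and LRP6, was 0.18 higher on the log2 scale (edgeR adjusted p = 0.0329). MESDC1, which is in the list for its name and is not known as a chaperone, was 0.38 higher (edgeR adjusted p = 0.020), and without it 2 genes of this list rose. MYLIP, the ubiquitin ligase that sends VLDLR and LRP8 to degradation, was at 38.6 CPM with LYCAT shRNA and 49.5 CPM with control shRNA (log2 -0.36, SE 0.109, edgeR adjusted p = 0.0132).

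Apart from that of LRPAP1, these smaller calls depended on single libraries. With DESeq2, MYLIP, MESDC1 and MESDC2 did not pass (DESeq2 adjusted p = 0.094, 0.126 and 0.134). MYLIP did not pass without LYCAT shRNA replicate 1, control shRNA replicate 1 or control shRNA replicate 3 (edgeR adjusted p = 0.138, 0.142 and 0.0733). MESDC1 did not pass without LYCAT shRNA replicate 2 or 3 or control shRNA replicate 2 (0.0748, 0.162 and 0.207), nor MESDC2 without LYCAT shRNA replicate 1 or control shRNA replicate 3 (0.373 and 0.190). LRPAP1 passed without any 1 library. Without control libraries 1 and 2 together, LRPAP1 and MESDC1 did not pass (edgeR adjusted p = 0.0819 and 0.558).

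Of the other VPS10 domain receptors, named after their values were seen, SORCS3 had no counts, SORCS1 at most 0.246 CPM and SORCS2 at most 2.22 CPM in any library, and none was abundant enough to test. SORCS2 averaged 0.751 CPM with LYCAT shRNA and 1.72 CPM with control shRNA, and its groups overlapped.

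Retromer and endosomal sorting genes, with which SORL1 works, mostly did not pass: of 30 tested, 2 rose and 1 fell (3 of 30, where 19.1% of all tested genes passed), 27 did not pass, and the median log2 fold change was -0.02. SNX27, which links cargo tails to retromer, rose to 92.1, 94.5 and 92.0 CPM with LYCAT shRNA, against 66.2, 67.3 and 69.7 CPM with control shRNA (log2 0.45, SE 0.0805, edgeR adjusted p = 9.38e-06). SNX5, a sorting nexin of the same coat, rose by 0.27 on the log2 scale (SE 0.0605, edgeR adjusted p = 0.000638). KIAA1033, a subunit of the WASH complex that builds actin on endosomes, was at 62.2 CPM with LYCAT shRNA and 73.4 CPM with control shRNA (log2 -0.24, edgeR adjusted p = 0.0403). Leaving out any library but control shRNA replicate 1 ended its call (0.0603 to 0.126). Without control libraries 1 and 2 together, SNX5 and KIAA1033 did not pass (edgeR adjusted p = 0.0891 and 0.114). The retromer core subunit VPS35 and the endosomal GTPase RAB7A had log2 fold changes of -0.03 and 0.08 and did not pass.

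In the APP family and its secretases, 1 of 12 tested genes rose and 2 fell (25.0%, against 19.1% of all tested genes), 9 did not pass, and the median was -0.01. APP, the best known cargo of SORL1, fell to 147, 157 and 157 CPM with LYCAT shRNA, against 211, 180 and 180 CPM with control shRNA (log2 -0.31, SE 0.0643, edgeR adjusted p = 0.000155). NCSTN, the gamma-secretase subunit nicastrin, fell to 35.6 CPM with LYCAT shRNA, against 51.2 CPM with control shRNA (log2 -0.53, SE 0.110, edgeR adjusted p = 0.000173). PSEN2, a catalytic subunit of the same protease, rose to 25.3 CPM with LYCAT shRNA, against 15.5 CPM with control shRNA (log2 0.70, SE 0.150, edgeR adjusted p = 0.000245).

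NCSTN and PSEN2 kept their calls without any 1 library and without control libraries 1 and 2. APP did so without any 1 library, and not without both of those control libraries (edgeR adjusted p = 0.0527). The APP relative APLP2 (log2 0.13) and the gamma-secretase subunit APH1A (log2 -0.11) did not pass. BACE1 and BACE2, named after their values were seen, did not pass with all libraries (edgeR adjusted p = 0.0958 and 0.0718). More genes of this list passed as higher without 1 library. They were BACE2 without LYCAT shRNA replicate 3 or control shRNA replicate 1 (edgeR adjusted p = 0.0459 and 0.0397), and BACE1 and APLP2 without control shRNA replicate 2 (0.0166 and 0.00349). APLP2 also passed without control libraries 1 and 2 (0.00485).

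Among genes for ligands, 3 of 12 tested rose, LRPAP1 among them, and 2 fell (41.7%, against 19.1% of all tested genes), 7 did not pass, and the median was 0.00. PDGFA, a growth factor chain, rose to 15.2 CPM with LYCAT shRNA, against 9.49 CPM with control shRNA (log2 0.66, SE 0.192, edgeR adjusted p = 0.00872), and CLU, clusterin, to 82.4 CPM, against 69.4 CPM (log2 0.25, adjusted p = 0.0236). PDGFA did not pass without LYCAT shRNA replicate 2 (0.0913), and CLU did not pass when any library but control shRNA replicate 3 was left out (0.0523 to 0.104). Without control libraries 1 and 2 together neither passed (edgeR adjusted p = 0.206 and 0.529). CALR and HSP90B1, chaperones that LRP1 also binds at the cell surface, fell by 0.29 and 0.25 on the log2 scale (edgeR adjusted p = 0.000108 and 3.13e-05). PSAP, prosaposin, a cargo of SORT1, and LPL, lipoprotein lipase, had log2 fold changes of -0.02 and -0.03 and did not pass. Another 12 ligand genes were too low to test. In 2 of them, named after their values were seen, the groups did not overlap, and the same held for 32.8% of all tested genes. Nothing is read from this count. THBS1, thrombospondin, was at 0.851, 1.29 and 0.701 CPM with LYCAT shRNA and 1.71, 3.85 and 1.48 CPM with control shRNA, from 3 to 19 counts. PLAT, tissue plasminogen activator, averaged 1.91 CPM with LYCAT shRNA and 0.952 CPM with control shRNA, from 4 to 9 counts.

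**Figure D4:**
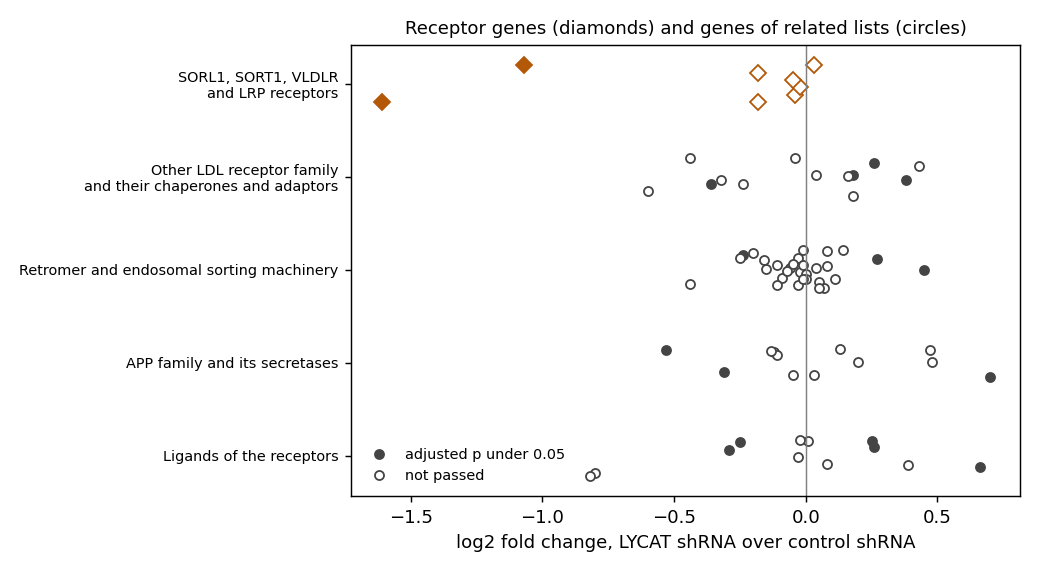
Log2 fold change of LYCAT shRNA over control shRNA (horizontal axis) for the 8 receptor genes (diamonds) and for the tested genes of 4 related lists (circles); filled symbols passed an adjusted p under 0.05. No tested gene of the 4 lists lies as low as VLDLR at -1.07 or SORL1 at -1.61.

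The genes whose profile over the 6 libraries was most like that of SORL1 were found by the root mean square difference of log2 CPM, each gene centred on its own mean, among genes averaging 5 CPM or more. They were PRAME, a tumour antigen (difference 0.154), LPHN1, an adhesion receptor (0.188), CTH, an enzyme of cysteine synthesis (0.214), ATP8A1, a phospholipid flippase (0.215), JDP2, a transcription factor (0.227), and LAMA5, a laminin chain (0.262). PRAME stood at 11.1, 10.3 and 7.71 CPM with LYCAT shRNA and 27.2, 22.9 and 26.3 CPM with control shRNA, and like SORL1 it was lowest in LYCAT shRNA replicate 3 of its group. Log2 fold changes of the 6 ranged from -1.63 to -1.30. These likenesses follow from how the 6 genes were picked and are no further result. Of the other receptors above 5 CPM, LRP11 was the most like SORL1, at a difference of 0.689, number 1862 in order of likeness. SORT1 was close to it, at 0.692 and number 1905. VLDLR averaged under 5 CPM and was not compared with SORL1 in this way.

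Tested genes nearest to SORL1 on chromosome 11 had far smaller log2 fold changes than SORL1. The 2 nearest tested genes on each side, by GENCODE v29, were TBCEL and ARHGEF12 before it and UBASH3B and HSPA8 after it. Their log2 fold changes were -0.22 (SE 0.396), -0.10 (SE 0.0930), -0.12 (SE 0.246) and 0.19 (SE 0.0409), and of these HSPA8, a heat shock chaperone, passed as higher (edgeR adjusted p = 0.000327). These neighbours lie 361 to 1420 kb from SORL1 in GRCh38.

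**Figure D5:**
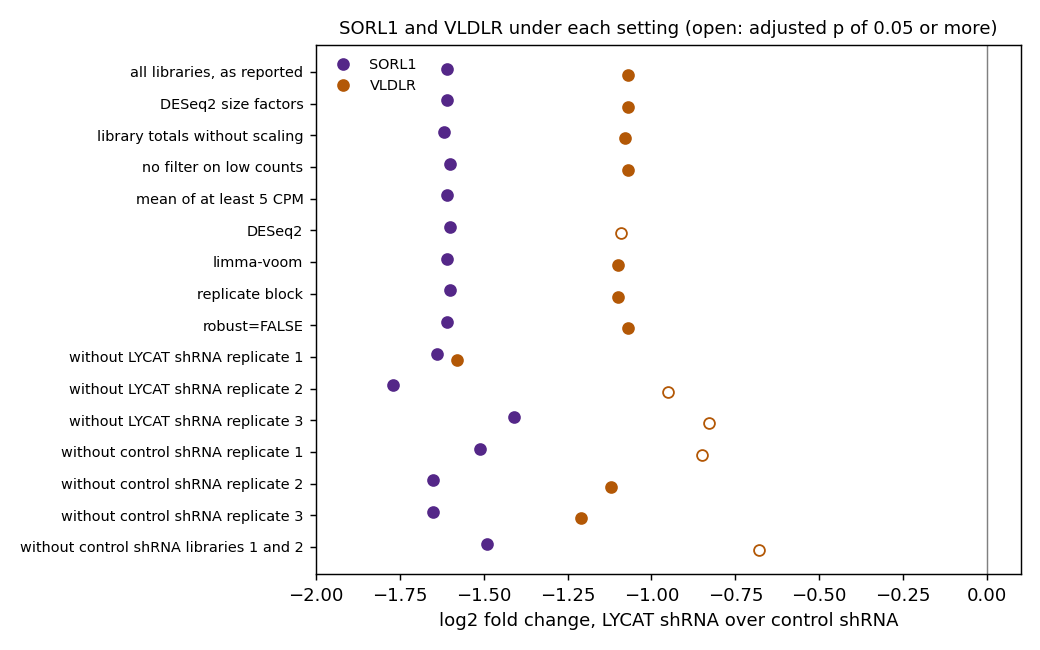
Log2 fold change of LYCAT shRNA over control shRNA for SORL1 and VLDLR under each processing setting; filled points passed an adjusted p under 0.05, and VLDLR has no point where genes under a mean of 5 CPM were left out. SORL1 stays between -1.77 and -1.41, and VLDLR ranges from -1.58 to -0.68.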

How the data were processed

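RNA was sequenced from H2122 cells, with 3 libraries for LYCAT shRNA and 3 for control shRNA. Counts were deposited in a single table with a row for each gene symbol, as whole numbers that are not normalized. The submitters' processing notes name featureCounts 1.5.1, BWA 0.7.15, bcl2fastq 2.17 and Bowtie2, and the builds hg19 and mm10. The sources used here do not say which aligner and build made the table or whether strand was used. The columns headed cycat were taken as LYCAT shRNA, a likely misspelling.

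Low counts were removed with filterByExpr and libraries scaled by TMM factors in edgeR 4.0.16 (R 4.3.3), and the quasi-likelihood F test (robust=TRUE) was run with group as the only term over 11097 genes, with Benjamini-Hochberg adjustment over all of them. A gene passed at an adjusted p under 0.05. The SE of a log2 fold change is the absolute log2 fold change over the root of the F statistic, and 95% intervals use the fit's degrees of freedom. The profile comparison used log2 CPM with a prior count of 2. Intervals and the 3-count level cover counting error and library spread only. The fit was checked on simulated data. The receptors and all gene lists were chosen with earlier results of these data known. Named genes were LCLAT1, all 8 receptors, up to 4 genes per list and direction by adjusted p, the 2 most abundant that did not pass, the 6 genes most like SORL1 and the 2 tested neighbours on each side. Others, apart from the cell type markers, are named as chosen after their values were seen. Single genes of the LDL receptor family list that did not pass are not reported here. RefSeq promoters (GRCh38.p14) matched 7 of the 8 receptors.

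Alternatives were DESeq2's size factors, library totals, no filter, DESeq2 1.42.0, a minimum mean of 5 CPM, limma-voom (limma 3.58.1), a replicate block, robust=FALSE and leaving out each library. A fit without control libraries 1 and 2 was added after seeing the data.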

Additional observations from a re-analysis of the deposited data

How the results depend on the processing

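The log2 fold change of SORL1 lay between -1.77 and -1.41 under the 15 alternatives, a range given as a description, since SORL1 was chosen from these counts. LCLAT1 was lower and passed under all 15. With 1 library left out, 1 to 3 receptors passed as lower and 0 as higher, and the counts over all genes were 700 to 1100 lower and 742 to 1128 higher. For the related lists these counts were 2 to 3 higher and 0 to 1 lower for the LDL receptor family, 2 higher and 0 to 1 lower for retromer and sorting genes, 1 to 3 higher and 2 lower for the APP list, and 1 to 3 higher and 2 to 3 lower for ligands. With a mean of at least 5 CPM, where VLDLR was not tested, 1 receptor passed as lower. With no filter on low counts, 0 retromer genes passed as lower and 2 APP list genes as higher. With DESeq2, 558 genes were lower and 635 higher, 1 receptor was lower, the LDL receptor family had 0 lower and 1 higher, retromer genes 0 lower and ligands 1 higher. Without control shRNA libraries 1 and 2, 556 genes were lower and 573 higher and 1 receptor was lower. In that fit the LDL receptor family had 1 higher, retromer genes 0 lower and 1 higher, the APP list 1 lower and 2 higher, and ligands 0 higher. Fewer libraries entered the fits that leave some out; for the other settings the cause was not tested. With the replicate block, 1002 genes were lower and 1044 higher, and 2 receptors passed as lower. Deviations of libraries with the same number correlated at 0.01, -0.06 and -0.05, and of those with different numbers at -0.08 to 0.12. These values gave no sign of pairing by number. They cannot exclude it, since counting noise enters such deviations. Depth limits VLDLR and LRP1 most, with counts of 5 to 32 per library.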
